A study of Brassica rapa with 28 samples.

Results

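The uncovered leaf of Brassica rapa plants was followed over 24 h while another leaf of the same plants was wrapped in foil. The comparison set the 7 libraries named 24hr against the 7 named pre, 14 of the 28 libraries of the series, chosen by their labels. Both samples of a pair came from the same leaf of the same plants, so each plant pool was compared with itself. Plants were wild type or carried the BrphyB-3 mutation, and the labels give R-o-18 as the strain of both. Wild-type pools carried the numbers 3 to 6 (4 pools) and BrphyB-3 pools the numbers 3 to 5 (3 pools). Each pool combined punches of 28 mm2 from 3 plants. Plants were 3 weeks old at pre and grew at 20°C with 16 h of light and 8 h of dark. Punches were taken 5 h into the light period at both stages, so the clock time was the same. BrphyB-3 was the only mutant line, and every plant had a covered leaf. The covered leaf gave the other 14 libraries, called dark (48 h after 24hr, when the foil came off) and recovery (24 h after that).

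Phytochrome B is a photoreceptor for red light that is activated by red light and inactivated by far-red light. In its active form it enters the nucleus and restrains the PIF transcription factors, which otherwise promote shade and dark responses. A single leaf kept dark on a lit plant loses photosynthetic gene expression and can begin to senesce, while the lit leaves go on exporting sugar. The uncovered leaf is the lit reference of this design. By 24hr it was a day older, had been punched before, and belonged to a plant with a covered leaf. These 3 differences from pre cannot be told apart here, because every plant had all of them. The deposited table did not pair gene IDs with names, and 0 IDs matched the RefSeq table, so genes are given by ID without a role, no pathway list was run and the leaf label was not checked against marker genes.

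Raw counts per gene were deposited, and total counts in the 14 libraries ranged from 5221760 to 14159657. The wild-type pool 3 library at pre was the shallowest and stood apart. Its profile differed from the other 13 by a root mean square of 0.89 to 1.25 log2 units per gene, and its nearest library was the 24hr library of its own pool. Over the 7 pools, the distance between the pre and 24hr libraries of a pool had a median of 0.60 log2 units, with a range of 0.54 to 0.89. Libraries of different pools of the same genotype and stage differed by a median of 0.79 log2 units, with a range of 0.51 to 1.12. Without wild-type pool 3 these medians were 0.58 and 0.71. In bulk tissue, a lower level can come from fewer cells of a type or from less RNA per cell, and these cannot be told apart.

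No gene passed the threshold when the genotypes were pooled and each pool was its own control. Of 23429 genes tested, 0 (0%) had a Benjamini-Hochberg adjusted p under 0.05 by edgeR's quasi-likelihood test with the pool as a block. The lowest adjusted p was 0.0682, shared by 5 genes. At an unadjusted p under 0.05 there were 3093 genes, 13.2% of those tested, 1703 higher (7.27%) and 1390 lower (5.93%) at 24hr. The DESeq2 Wald test with the same block called 484 genes, 2.07%, of which 308 were higher (1.31%) and 176 lower (0.751%). It gave no adjusted p to 1817 of the 23429 genes, which therefore could not be called. All 484 had an unadjusted edgeR p under 0.05. Without the filter on low counts, edgeR called 171 of 34117 genes, 115 higher and 56 lower. The number of calls therefore depended on the tool and on the filter. With the filter, leaving out BrphyB-3 pool 5 gave 8 calls among 23638 genes in edgeR. Leaving out BrphyB-3 pool 4 gave 3 among 23838, and wild-type pool 6 gave 1 among 23282.

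Fitted changes were small for most genes. The middle 90% of genes had log2 changes between -0.45 and 0.59, with a median of 0.01. An absolute log2 change of 1 or more, which is 2-fold, was fitted for 518 genes, 2.21% of those tested. Only 107 of these 518 reached a mean of 10 CPM (counts relative to the TMM-adjusted library total) at either stage, 71 higher and 36 lower at 24hr. Of those 107, 48 moved the same way in all 7 pools. Across all genes tested, 704 were higher at 24hr in 7 of 7 pools and 516 were lower in 7 of 7, together 5.21%, against 0% called. Levels did not overlap between the 7 pre and the 7 24hr libraries for 11 of the 23429 genes, 8 higher and 3 lower. Whether 11 is more than chance gives among so many genes was not tested.

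**Figure D1:**
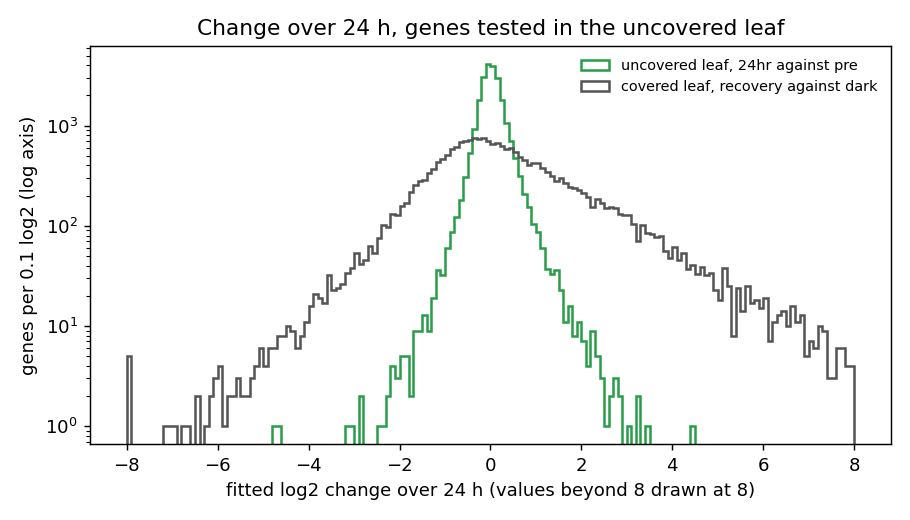
Fitted log2 change over 24 h (horizontal axis) against the number of genes in each bin of 0.1 log2 (vertical axis, log scale), for genes tested in the uncovered leaf. The uncovered leaf (24hr against pre) stays close to 0, with 2.21% of its genes at an absolute log2 change of 1 or more. The covered leaf of the same plants (recovery against dark) spreads much farther.

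The direction at an unadjusted p under 0.05 differed with abundance. Among the 1675 genes with a mean of at least 100 CPM, 92 were higher and 244 lower at 24hr, together 20.1%. Of the 10279 genes between 10 and 100 CPM, 846 were higher and 753 lower, together 15.56%. Of the 9871 genes between 1 and 10 CPM, 675 were higher and 363 lower, together 10.52%. Below 1 CPM there were 90 higher and 30 lower among 1604 genes, together 7.48%. The spread of the fitted log2 changes narrowed from an SD of 0.62 below 1 CPM to 0.22 at 100 CPM or more. The 20 most abundant genes at pre had log2 changes between -0.41 and 0.07, 18 of them below 0. None of the 20 had an unadjusted p under 0.05, and their lowest adjusted p was 0.416 (edgeR quasi-likelihood). These 20 genes took 13.1% of all counts at pre and 12.2% at 24hr.

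More genes were detected at 24hr at equal depth. After each library was thinned to 4928822 counts, 26034 ± 770 genes (SD, n = 7) had at least 1 count at pre and 26467 ± 256 at 24hr. The difference of 433 ± 582 genes was positive in 7 of 7 pools, and the exact permutation p was 0.0156, the lowest value that 7 pairs can give. This test flipped the sign of each pool's difference and was 2-sided, here and for the other pool measures. The Benjamini-Hochberg adjustment covered the 5 measures tested per pool and gave an adjusted exact permutation p of 0.0391. Wild-type pool 3 gained 1739 genes and the other 6 pools gained 112 to 373. Without wild-type pool 3 the mean gain was 215 genes, with an exact permutation p of 0.0312, the smallest that 6 pairs allow. Totals before thinning were higher at 24hr in 6 of 7 pools, by a mean of 1420200 counts. The part of depth before thinning in the gain was not tested. The share of counts in the 20 most abundant genes of each library was 13.2% ± 2.08 at pre and 12.4% ± 1.69 at 24hr, lower in 5 of 7 pools, with an exact permutation p of 0.141 (adjusted 0.195).

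Among genes of at least 10 CPM that moved the same way in all 7 pools, the lowest p-values belonged to BraA02000241 and BraA01002411 for higher levels at 24hr, and to BraA09000258 and BraA10000335 for lower levels. None of the 4 passed the threshold in the pooled edgeR test, while DESeq2 called all 4. In the wild type, BraA02000241 had 2.34, 10.4, 10.4 and 8.45 CPM at pre in pools 3 to 6, and 3.27, 31.9, 18.4 and 19.0 CPM at 24hr. In BrphyB-3 it had 3.73, 9.40 and 6.04 CPM at pre in pools 3 to 5, and 11.1, 26.8 and 35.3 CPM at 24hr. It was higher at 24hr in every pool, but the 2 sets of libraries overlapped because wild-type pool 3 was low at both stages. The fitted log2 change was 1.46 (SE 0.20, edgeR quasi-likelihood, adjusted p 0.0682). It lay between 1.26 and 1.58 in 16 alternative settings, whose adjusted p-values by edgeR or DESeq2 spanned 1.22e-07 to 0.874.

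BraA01002411 had 17.8, 40.4, 34.6 and 38.2 CPM at pre in wild-type pools 3 to 6, and 29.3, 66.4, 61.8 and 48.7 CPM at 24hr. Its BrphyB-3 levels were 16.4, 46.9 and 24.0 CPM at pre and 26.4, 59.4 and 49.4 CPM at 24hr. The gain was 0.34 log2 units in the pool where it was smallest and 1.04 in the pool where it was largest. Pools 3 of both genotypes were the lowest at both stages. The fitted log2 change was 0.67 (SE 0.10, edgeR quasi-likelihood, adjusted p 0.0812; DESeq2, adjusted p 6.27e-05).

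BraA09000258 had 121, 27.3, 25.6 and 51.4 CPM at pre in wild-type pools 3 to 6, and 38.0, 11.7, 14.6 and 23.6 CPM at 24hr. In BrphyB-3 pools 3 to 5 it had 58.9, 8.99 and 31.5 CPM at pre, and 27.1, 6.99 and 13.4 CPM at 24hr. Levels at pre spanned more than the change, and BrphyB-3 pool 4 was the lowest at both stages. The fitted log2 change was -1.10 (SE 0.13, edgeR quasi-likelihood, adjusted p 0.0682; DESeq2, adjusted p 8.02e-09). BraA10000335 had 91.1, 88.0, 42.5 and 52.7 CPM at pre in the wild-type pools and 51.2, 52.7, 22.3 and 38.0 CPM at 24hr. Its BrphyB-3 levels were 171, 19.0 and 133 CPM at pre and 97.5, 13.8 and 98.1 CPM at 24hr. The change was even across pools, between -0.92 and -0.44 log2 units, although the level differed several-fold between pools. The fitted log2 change was -0.67 (SE 0.09, edgeR quasi-likelihood, adjusted p 0.0682; DESeq2, adjusted p 1.61e-06).

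**Figure D2:**
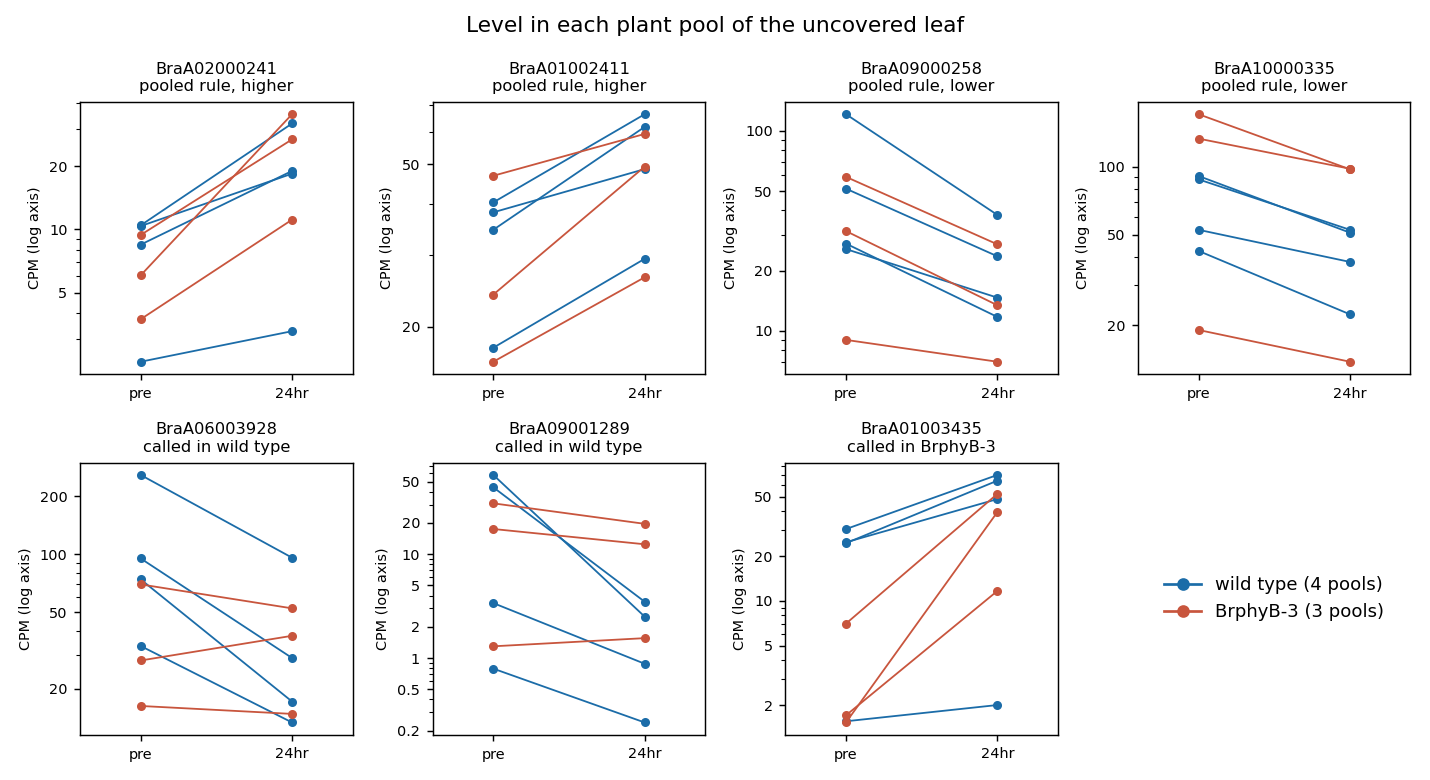
CPM at pre and 24hr (vertical axes, log scale) of 7 genes in each plant pool, with a line joining the 2 samples of a pool (blue, 4 wild-type pools; red, 3 BrphyB-3 pools). Lines slope the same way in all 7 pools for the 4 genes of the upper row, whose edgeR adjusted p-values were 0.0682 to 0.0812, and the lower row holds the 3 genes called by edgeR in a single genotype.

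With a stage term for each genotype in the same model, 2 of 23429 genes (0.00854%) passed in the wild type, both lower at 24hr, and 1 gene (0.00427%) passed in BrphyB-3, higher at 24hr. With all pools in the fit, these were the only calls of the edgeR test with its filter on low counts. The 3 genes were chosen after their values were seen. Of the same 23429 genes, DESeq2 called 52 in the wild type and 132 in BrphyB-3. Without the filter, edgeR called 32 and 60 of 34117 genes. BraA06003928 fell in the wild type from 74.1, 33.4, 95.2 and 258 CPM at pre in pools 3 to 6 to 17.2, 13.4, 29.0 and 96.1 CPM at 24hr. It was lower at 24hr in 4 of 4 wild-type pools, although the levels of the 2 stages overlapped. In BrphyB-3 it had 16.3, 28.1 and 69.8 CPM at pre and 14.8, 37.8 and 52.4 CPM at 24hr, lower in 2 of 3 pools. The log2 change was -1.64 in the wild type (SE 0.17, edgeR quasi-likelihood, adjusted p 0.0362) and -0.05 in BrphyB-3 (SE 0.19, adjusted p 0.976).

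BraA09001289 fell in the wild type from 44.1, 0.790, 3.38 and 58.0 CPM at pre to 3.48, 0.239, 0.880 and 2.50 CPM at 24hr. Wild-type pools 3 and 6 were high at pre, while pool 4 was near the limit of detection with 9 counts at pre and 3 at 24hr. BrphyB-3 pools 3 to 5 had 17.5, 1.30 and 30.9 CPM at pre and 12.5, 1.55 and 19.6 CPM at 24hr. The log2 change was -3.50 in the wild type (SE 0.40, edgeR quasi-likelihood, adjusted p 0.0480) and -0.42 in BrphyB-3 (SE 0.36, adjusted p 0.795). BraA01003435 rose in BrphyB-3 from 1.71, 7.05 and 1.53 CPM at pre to 11.7, 52.2 and 39.4 CPM at 24hr, and all 3 values at 24hr lay above those at pre. In the wild type it had 1.56, 30.4, 24.8 and 24.4 CPM at pre and 2.01, 70.0, 48.2 and 64.1 CPM at 24hr, higher in 4 of 4 pools. Wild-type pool 3 had only 8 counts of it at pre and 19 at 24hr. The log2 change was 3.37 in BrphyB-3 (SE 0.32, edgeR quasi-likelihood, adjusted p 0.0160) and 1.12 in the wild type (SE 0.25, adjusted p 0.493).

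Whether the change differed between genotypes was tested directly. By edgeR's quasi-likelihood test 0 of 23429 genes passed (0%), with 861 at an unadjusted p under 0.05, 3.67% of those tested, and the DESeq2 Wald test called 10. The difference in log2 change, BrphyB-3 minus wild type, was 1.59 for BraA06003928, 3.08 for BraA09001289 and 2.26 for BraA01003435. Each had an edgeR quasi-likelihood adjusted p of 0.773. Their unadjusted p-values by that test were 8.01e-05, 0.000152 and 0.000198, but the genes were chosen on the same libraries. After adjustment over all genes, edgeR therefore showed none of the 3 calls to be particular to its genotype. Whether DESeq2 had any of the 3 among its 10 genes is not given here. All 3 lost their call with all 28 libraries in the fit, without the pool block, without wild-type pool 3, without wild-type pool 4, without wild-type pool 6 and without BrphyB-3 pool 3. Their log2 changes stayed of similar size over 12 alternative settings, from -1.74 to -1.49 for BraA06003928, from -3.93 to -2.88 for BraA09001289 and from 2.84 to 3.72 for BraA01003435.

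Levels in the covered leaf, normalised among its own 14 libraries, gave the 3 genes called in a single genotype a wider range. BraA06003928 had 2373 ± 1422 CPM (SD, n = 7) at dark and 39.4 ± 24.9 CPM at recovery. BraA09001289 had 184 ± 87.0 CPM at dark and 3.03 ± 2.01 CPM at recovery, and BraA01003435 had 64.4 ± 35.8 and 9.97 ± 12.2 CPM. All 3 fell from dark to recovery in 7 of 7 pools (edgeR quasi-likelihood, adjusted p 4.67e-05, 1.73e-06 and 0.00701). Such falls were common, as 6213 of the 23924 genes tested in the covered leaf fell in 7 of 7 pools. In that comparison 31.9% of genes were called lower and 33.2% higher at recovery. Of the 4 genes from the pooled test, BraA02000241 and BraA01002411 fell from dark to recovery, by 3.00 and 1.20 on the log2 scale (adjusted p 0.00146 and 0.00164). BraA10000335 rose by 2.75 on that scale (adjusted p 0.000669), and BraA09000258 did not pass (log2 change -0.71, adjusted p 0.0692).

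Loosening the adjusted p to 0.1, a choice made after the values were seen, gave 62 genes (0.265%), 37 higher (0.158%) and 25 lower (0.107%) at 24hr. The 37 had fitted log2 changes from 0.51 to 3.23, with a median of 1.00, and 28 of them reached a mean of 10 CPM. For the 25 the range was -2.84 to -0.43, with a median of -0.72. Of the 37, 36 were higher in 7 of 7 pools, and all 25 were lower in 7 of 7, which the choice by p-value favours. In the covered leaf, recovery against dark shared no library with this comparison and called 15570 of 23924 genes (65.1%), 33.2% higher and 31.9% lower at recovery. Of the 25 genes lower at 24hr, 18 were higher at recovery and 3 were lower. Of the 37 genes higher at 24hr, 35 could be tested in the covered leaf, and 11 were higher and 13 lower at recovery.

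The change in the uncovered leaf was smaller than that of the covered leaf over the same length of time. The root mean square log2 change per gene between pre and 24hr was 0.92, 0.57, 0.72 and 0.63 in wild-type pools 3 to 6 and 0.59, 0.57 and 0.83 in BrphyB-3 pools 3 to 5. Between dark and recovery it was 2.10, 1.58, 1.92 and 1.76 in the wild-type pools and 1.90, 1.64 and 1.90 in the BrphyB-3 pools. The 2 sets did not overlap. The difference, uncovered minus covered, was -1.14 ± 0.10 (SD, n = 7). Its exact permutation p was 0.0156 (adjusted 0.0391), again the smallest that 7 pairs allow. These distances also hold counting and sampling noise, and wild-type pool 3, with its shallow pre library, had the largest value in the uncovered leaf.

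Genes that differed between dark and recovery in the covered leaf were then followed in the uncovered leaf. Recovery followed a day of light, but the leaf was also a day older and had been punched before, and these cannot be told apart. The list of genes at least 2-fold higher at recovery than at dark held 6088 genes, of which 5988 could be tested between pre and 24hr. Their median log2 change was -0.07, with 309 higher (5.16%) and 693 lower (11.6%) at an unadjusted p under 0.05. By genotype, the median was -0.02 in the wild type and -0.13 in BrphyB-3. The list of genes at least 2-fold lower at recovery held 4637, of which 3983 could be tested. Their median was 0.05, with 419 higher and 179 lower. Over all 23429 genes the median was 0.01, also in each genotype, with 1703 higher (7.27%) and 1390 lower (5.93%). The median of the first list lay below that of all genes in 6 of 7 pools, and that of the second lay above it in 4 of 7. Without the pools numbered 5 the first list had a median of -0.02, with 309 higher (5.16%) and 370 lower (6.18%). The second list then had a median of 0.04, with 271 higher (6.82%) and 90 lower (2.27%). All genes tested in that setting had a median of 0.02, with 1164 higher (4.96%) and 780 lower (3.33%).

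An index, called the light index, summed up both lists in each library as the mean log2 CPM of the first minus that of the second. In wild-type pools 3 to 6 it was 1.64, 1.45, 1.28 and 1.12 at pre and 1.80, 1.35, 1.33 and 0.98 at 24hr. In BrphyB-3 pools 3 to 5 it was 1.45, 1.27 and 1.56 at pre and 1.48, 1.01 and 1.07 at 24hr. It was lower at 24hr in 4 of 7 pools, most in BrphyB-3 pool 5. The mean difference of -0.11 ± 0.22 (SD, n = 7) was smaller than its SD over pools (exact permutation p 0.25, also 0.25 after adjustment). Without BrphyB-3 pool 5 the mean difference was -0.04. In the covered leaf, whose values chose the genes, the index gained 3.25 to 5.05 from dark to recovery.

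**Figure D3:**
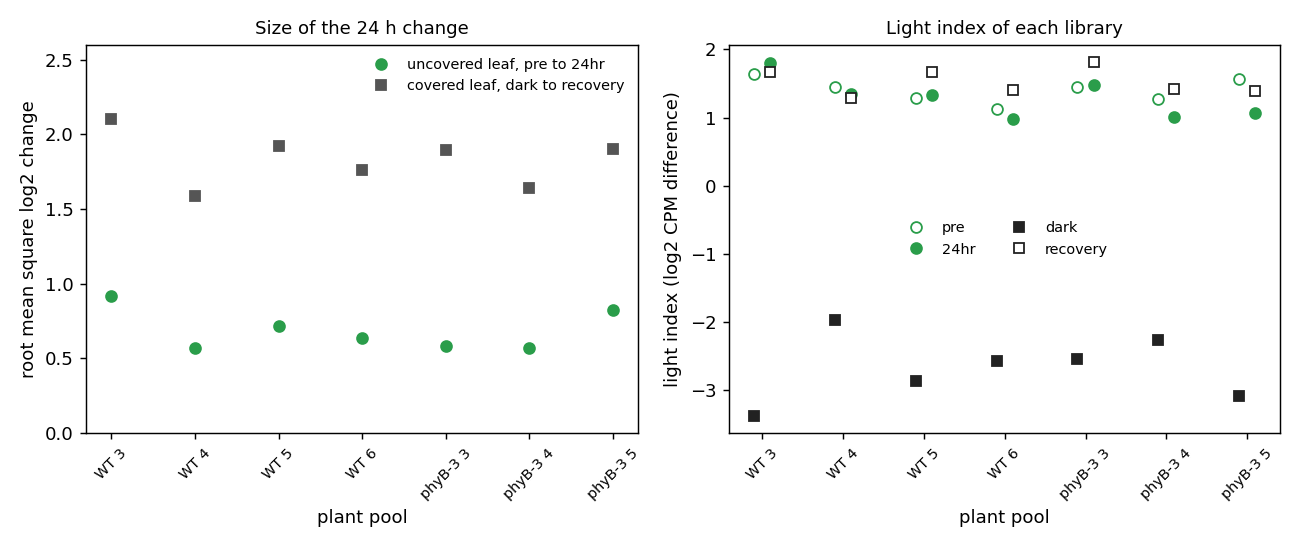
Left, root mean square log2 change per gene over 24 h in each plant pool, for the uncovered leaf (circles) and the covered leaf (squares). Right, the light index of each library (difference of mean log2 CPM between genes higher and lower at recovery than at dark). All 7 pools changed less in the uncovered leaf, and the pre and 24hr indices lie between 0.98 and 1.80. The dark and recovery libraries chose the index genes, so the low indices at dark follow in part from that choice.

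Pools differed in what changed. Across the 23429 genes, the log2 changes of 2 pools correlated with a Pearson r of -0.03 to 0.47 over the 21 pairs of pools, with a median of 0.08. In the covered leaf r was 0.63 to 0.89, with a median of 0.79. These are descriptions across genes, which are not independent replicates. The highest value in the uncovered leaf, 0.47, joined wild-type pool 5 and BrphyB-3 pool 5, while the other 20 pairs lay at or below 0.22. The mean change in the wild type and that in BrphyB-3 share no library and correlated with an r of 0.32 with all pools and of 0.15 without the pools numbered 5. In the wild type 1778 genes (7.59%) had an unadjusted p under 0.05, 949 higher (4.05%) and the others lower (3.54%). In BrphyB-3 there were 2122 (9.06%), 1215 higher (5.19%) and 907 lower (3.87%). The genotypes shared 454 of these genes, 25.5% of the first and 21.4% of the second, and 430 had the same sign. Both lists came from the same model with a shared estimate of each gene's spread. They are therefore not independent, and their overlap was not tested.

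**Figure D4:**
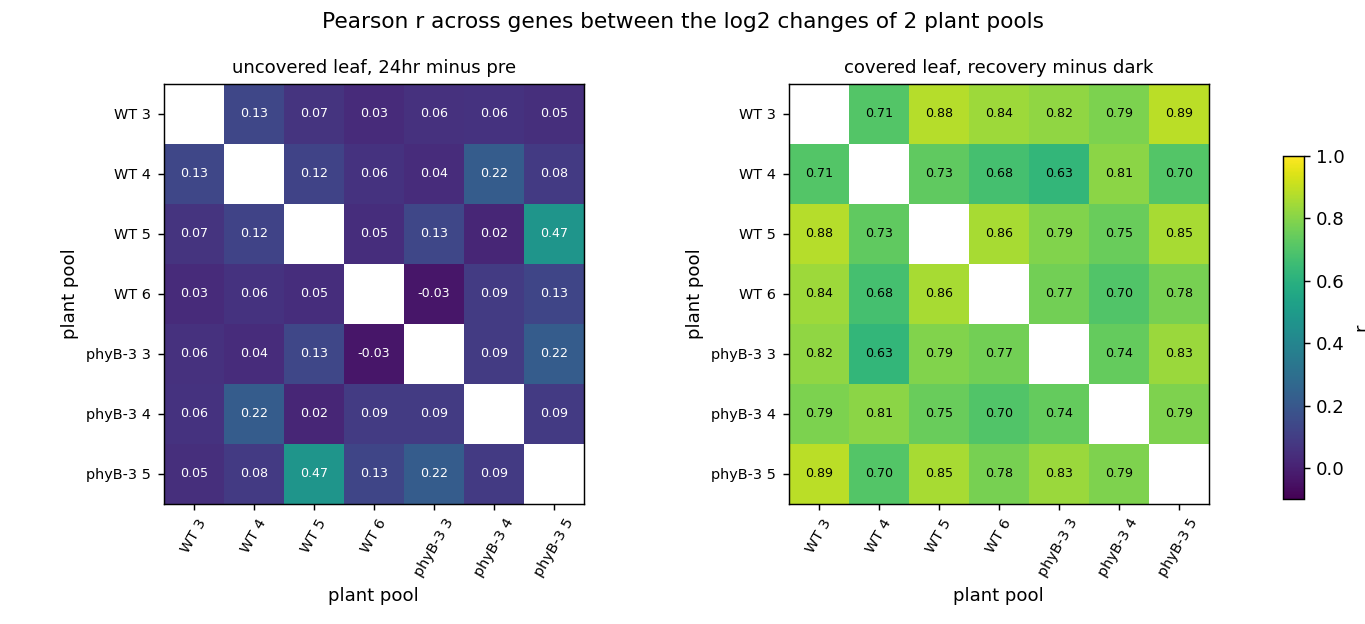
Pearson r across genes between the log2 changes of each pair of plant pools (both axes), for the uncovered leaf (left) and the covered leaf (right). Color and printed value give r. In the uncovered leaf only the pair of pools numbered 5 exceeds 0.22, while every pair in the covered leaf is at 0.63 or more.

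Both pools numbered 5 moved at least 2-fold in the same direction for 1034 genes, 595 higher (2.54% of those tested) and 439 lower (1.87%) at 24hr. Another 129 genes moved at least 2-fold in opposite directions in these 2 pools. The other 20 pairs of pools shared 183 to 653 genes in the same direction, with a median of 298.5. Pools also differed in how many genes passed 2-fold. BrphyB-3 pool 5 had 1828 higher and 1430 lower, and BrphyB-3 pool 4 had 671 and 819. The counts of pairs were not adjusted for this. For the 595 genes, chosen on these 2 pools, the median log2 change in the other 5 pools was 0.12 to 0.55. For the 439 genes it was -0.08 to 0.05, on either side of 0. The levels of both lists in these 2 pools follow in part from that choice and are given as a description. The 439 genes had a median of 3.29 log2 CPM in wild-type pool 5 and 3.39 in BrphyB-3 pool 5 at pre, against 1.58 to 2.14 in the other pools. At 24hr these medians were 1.28 and 1.56, against 1.53 to 2.14. The 595 genes had medians of 0.95 and 0.78 log2 CPM at pre, against 0.63 to 1.62 elsewhere, and of 2.70 and 3.01 at 24hr, against 0.82 to 1.97. The sample descriptions of these 4 libraries begin with the same letter, d, and those of the pools numbered 3 share the letter a. The changes of the pools numbered 3 correlated with an r of 0.06, and those of the pools numbered 4, whose letters are b and c, with an r of 0.22. What the pools numbered 5 have in common beyond their number was not tested. Without them, edgeR called 2 of 23450 genes in the pooled comparison and DESeq2 called 133.

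**Figure D5:**
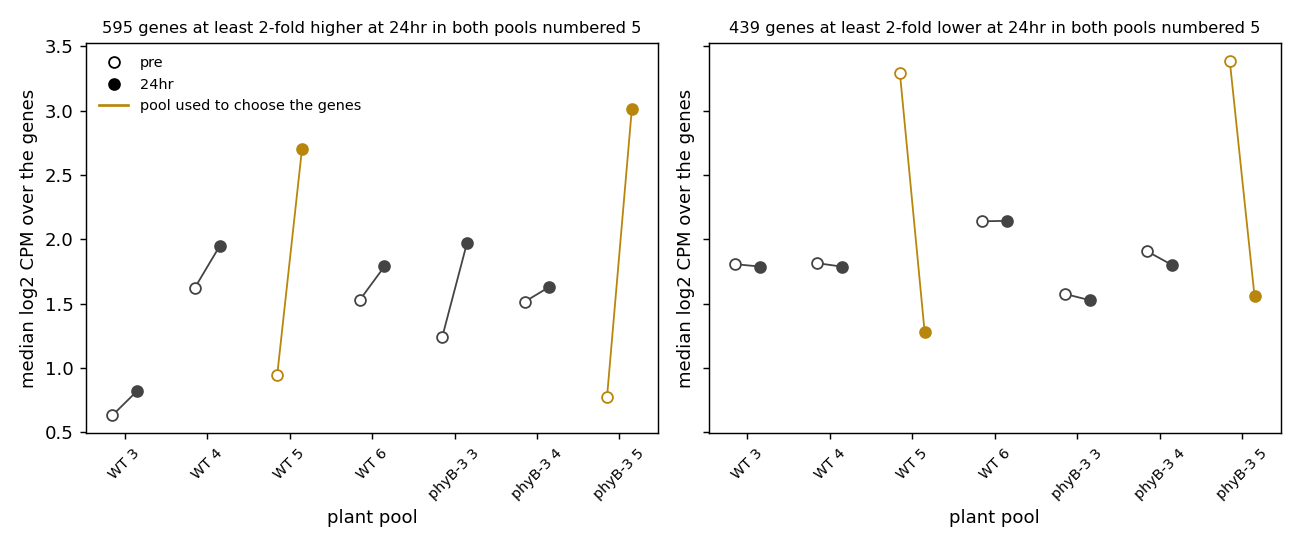
Median log2 CPM at pre (open) and 24hr (filled) in each plant pool, over 595 genes at least 2-fold higher (left) and 439 at least 2-fold lower (right) at 24hr in both pools numbered 5. The pools that chose the genes are in gold. The slopes in gold follow from that choice. In the other 5 pools, the medians of the 439 genes at pre are 1.58 to 2.14.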

How the data were processed

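Leaf RNA was measured by poly(A) RNA-seq as single reads of 80 bases, per the labels' protocols. The authors deposited raw counts per gene ID, whole numbers without normalization. The submitters' processing notes name bcl2fastq 2.17.1.14, Trimmomatic 0.36, Bowtie2 and HTSeq. The genome build, the annotation and any use of strand are not given in the sources used here, so levels of close paralogs, and of genes that overlap on either strand, are uncertain. There were 48826 gene IDs in the table, and 0 columns lacked a sample.

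Analyses used R 4.3.3. In the 14 libraries of the uncovered leaf, filterByExpr of edgeR 4.0.16 kept 23429 genes with 99.9% of the counts. Counts were scaled by the TMM method and tested by the quasi-likelihood method with the plant pool as a block, because both samples of a pool came from the same leaf per the labels. Libraries of a pool deviated together from their group means, with correlations across genes of 0.16 to 0.65. SEs of log2 changes were derived from the F statistics. Log2 CPM used a prior count of 2. Pool values were compared by exact sign-flip permutation over 128 sign patterns. The covered leaf was fitted in the same way, and its lists hold genes changed at least 2-fold at an adjusted p under 0.05.

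Genes were named as the 2 of largest rise and 2 of largest fall with an adjusted p under 0.05, at least 10 CPM and the same sign in 7 pools. With none past the threshold, those of lowest p replaced them, as the rule provided. Alternatives were DESeq2 1.42.0, RLE scaling, other filters, robust dispersions, all 28 libraries, no block, and leaving out each pool. Leaving out both pools numbered 5 was added after seeing the data. The comparison, lists and rules were chosen with earlier results of these data known. Scripts for tests across genes were tested on simulated data.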

Additional observations from a re-analysis of the deposited data

Results flagged for a closer look

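Of 33 sets of 4 or 7 values examined, 2 held a value far from the others, and chance gives about 1 in 20. Both concern the pre library of wild-type pool 3. After thinning to equal depth it held 24313 detected genes, against 26151 to 26366 in the other 3 wild-type libraries at pre. Its pool gained 1739 detected genes by 24hr, against 112 to 373 in the other 6 pools. It was also the shallowest of the 14 libraries before thinning, with 5221760 counts. No named gene moved in opposite directions in all pools of the 2 genotypes.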

How the results depend on the processing

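The number of calls for 24hr against pre depended on the tool and the filter. Of 23429 genes, the DESeq2 Wald test called 484 with the genotypes pooled, 52 in the wild type, 132 in BrphyB-3 and 10 for the genotype difference. Without a filter on low counts, edgeR gave 171, 32, 60 and 1 of 34117 genes. With all 28 libraries in the fit it gave 0 for all 4, with 1406 pooled genes at an unadjusted p under 0.05. Without the replicate block it gave 0 pooled, 0 in the wild type and 0 in BrphyB-3, with 1322 pooled genes at an unadjusted p under 0.05. RLE scaling, robust dispersions and a stricter filter left the pooled count at 0, while 3118, 3083 and 1912 genes respectively had an unadjusted p under 0.05. Without the pools numbered 5, an alternative added after seeing the data, edgeR gave 2 pooled genes of 23450 tested and DESeq2 133. Why the counts moved was not tested.

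Leaving out 1 pool at a time gave 0 to 8 pooled genes, 0 to 14 in the wild type (14 without BrphyB-3 replicate 5), 0 to 11 in BrphyB-3 (11 without BrphyB-3 replicate 4) and 0 to 2 for the genotype difference. Between 23069 and 23838 genes were tested in these settings. The mean change in total count ranged from 807140 to 2056900, and without BrphyB-3 replicate 4 its exact permutation p was 0.0312. Recovery against dark kept its count within 1.5 times in all settings run. The light index and the size of the change kept their sign and their side of the threshold in all settings run, although the index difference ranged from -0.15 to -0.04 when 1 pool was left out. Across settings no named gene changed sign.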
